A study of Mus musculus with 14 samples.

Results

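The nuclear genes of respiratory complexes II to V were followed across RNA-seq and Ribo-seq libraries of mouse embryonic fibroblasts. Members were chosen by name alone: protein-coding genes with the GENCODE M21 symbol Sdha, Sdhb, Sdhc, Sdhd or Cyc1, or with a symbol that starts with Uqcr, Cox4i, Cox5, Cox6, Cox7, Cox8 or Atp5. This gave 48 genes, of which 45 were listed in the deposited files, among 14241 genes listed in all. Complex II held 4 members, complex III 9, complex IV 18 and complex V 17. The 3 members not listed were Cox6b2, Cox8b and Cox8c, isoforms known from testis or from heart and muscle.

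The series asks, by its title, how mRNAs are translated without eIF4F, the complex that binds the mRNA cap. Every library came from C57BL/6J fibroblasts grown in DMEM with 10% serum, and cycloheximide at 100 µg/ml was present in washing and lysis. RNA-seq read fragments of 40 to 60 nt, and Ribo-seq read ribosome-protected fragments of 25 to 35 nt, which mark mRNA under translation. In each assay there were 2 libraries of METTL3 knockdown (hairpin shMETTL3), 2 of ABCF1 knockdown (shABCF1), 1 of cells given the mTOR inhibitor Torin1 at 250 nM for 2 h, and 2 of the scrambled hairpin control, called Scram. METTL3 writes N6-methyladenosine on mRNA, and ABCF1 is an ATP-binding protein found on ribosomes. The labels name DMSO as the vehicle but do not tie it to libraries, and they do not say whether Torin cells carried a hairpin. Nothing in them tells if the replicates of a group were grown apart, and each p-value then reflects library-to-library spread, which may be technical.

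These complexes pass electrons to oxygen and use the resulting proton gradient to make ATP in the inner mitochondrial membrane. Complex II is encoded wholly in the nucleus, whereas complexes III, IV and V each also hold subunits made from mitochondrial DNA, so their assembly joins products of cytoplasmic and mitochondrial ribosomes. mTOR complex 1 acts on cap-dependent translation through the eIF4E-binding proteins, and some nuclear mRNAs for mitochondrial proteins, as well as ribosomal protein mRNAs, are known to depend on it.

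The deposited RPKM values, which are reads scaled to length and library depth, imply totals of 1764404 to 5155237 reads for the Ribo-seq libraries. The RNA-seq totals were 1197854 to 3802696, and the Torin library had the fewest reads of each assay. Mettl3 in METTL3 knockdown stood at 29.1% and 77.9% of Scram of the same replicate in RNA-seq and at 12.6% and 39.2% in Ribo-seq, so its RNA was little lower in replicate 2. Abcf1 in ABCF1 knockdown stood at 29.4% and 48.4% of Scram in RNA-seq and at 35.0% and 50.8% in Ribo-seq. The fibroblast markers were listed in every RNA-seq library, 9 of 9, with a summed level of 2292.2 to 5387.6 RPKM, against at most 7.1 RPKM for the immune, endothelial, striated muscle, pluripotent and brown adipocyte lists and 25.0 to 82.5 RPKM for the epithelial list. Libraries of replicate 2 and Torin listed transcripts from about 5 reads up and 1 per gene, while those of replicate 1 listed them from 1 read up. Libraries tended to go together by this split, with ranges that overlap. In Ribo-seq their log2 values correlated at 0.95 to 0.98 within a set and at 0.91 to 0.96 between sets. In RNA-seq they correlated at 0.90 to 0.98 within a set and at 0.86 to 0.93 between sets. The differences below are therefore taken within a replicate, with Torin set against Scram replicate 2, unless stated. The main test across all genes has no replicate block and compares group means, with Torin set against both Scram libraries. A fit with the replicate as a block is given beside it.

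In Scram cells the members were abundant and densely occupied by ribosomes. All levels are scaled RPKM, brought to a common median of genes within each assay, per coding length in Ribo-seq and per transcript length in RNA-seq. Over the 32 members that passed the filter on low values in RNA-seq, the median level was 69.7 in Scram replicate 1 and 81.8 in replicate 2, against 9.7 and 9.5 over all 8007 genes that passed. Over the 34 members that passed in Ribo-seq, it was 735.5 and 688.3, against 22.5 and 22.3 over all genes. The median log2 ratio of Ribo-seq to RNA-seq level was 3.03 for 32 members and 1.33 for 7771 genes. By complex this ratio was 2.93 in II, 2.88 in III, 3.47 in IV and 2.98 in V. Nuclear subunits of complex I stood at 3.24, cytoplasmic ribosomal proteins at 2.49, enzymes of the tricarboxylic acid cycle at 1.99 and mitochondrially encoded subunits, which cytoplasmic ribosomes do not translate, at -1.35.

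**Figure D1:**
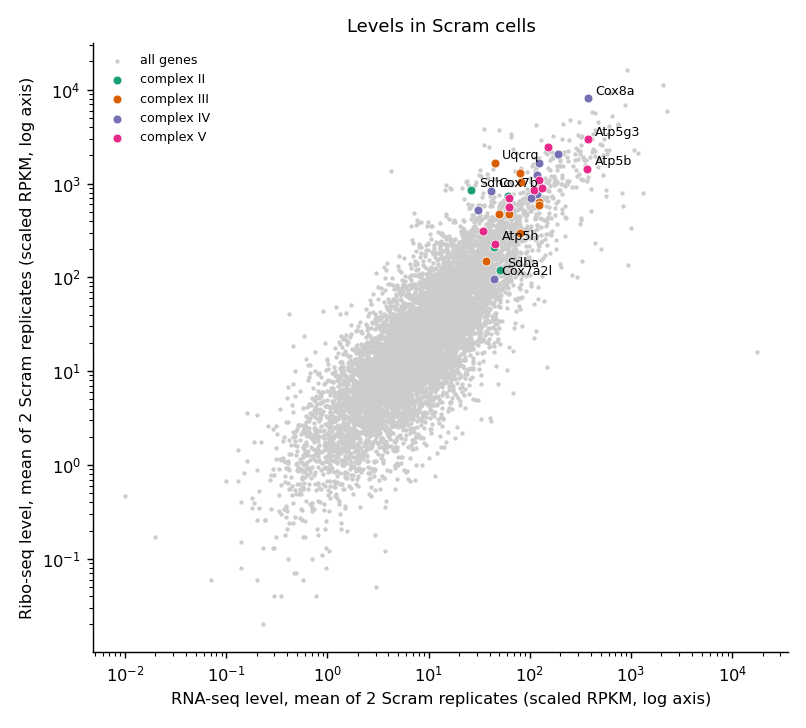
Ribo-seq level against RNA-seq level in Scram cells, both as the mean of 2 replicates in scaled RPKM on log axes. Grey points are all genes with a value in both replicates and coloured points are members by complex. Members without a value in both replicates or at 0 in either assay are not drawn, among them Atp5s and Cox7a1, whose Ribo-seq means were 5.29 and 6.71. The members drawn sit at the upper end of both axes, from Cox7a2l at 96.91 to Cox8a at 8100.38 in Ribo-seq.

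Cox8a, a small membrane subunit of complex IV, had the highest Ribo-seq level, 12210.0 in Scram replicate 1 and 3990.75 in replicate 2, although its RNA level was close between them at 363.05 and 383.82. Uqcrq, a small subunit of complex III, had the highest log2 ratio of the members with both replicates, 5.41 and 4.95. The lowest ratio belonged to Cox7a2l, at 0.65 and 1.41. Sdha, the catalytic flavoprotein of complex II, followed at 1.04 and 1.38, and its membrane partner Sdhc stood at 5.22 and 4.60. Sdha and Sdhc, partners in 1 complex, differed in this ratio by more than their replicates did. The RNA level is per annotated transcript length, which was 1521 nt for Uqcrq and 3171 nt for Sdhc, against coding lengths of 249 and 510 nt. If these cells use shorter transcripts, both ratios are overstated, which was not tested.

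The isoform families showed which copies these fibroblasts used. Of the Cox6a pair, Cox6a1, the form of most tissues, stood at 1767.6 and 2382.0 in Scram Ribo-seq, while the heart and muscle form Cox6a2 was listed in 1 library only, with 2 reads. Of the Cox7a pair, Cox7a2 stood at 1864.72 and 1455.16, and the heart and muscle form Cox7a1 at 13.43 and 0, where 0 in replicate 2 means fewer than about 5 reads. Cox4i1, the regulatory subunit that binds ATP, stood at 1755.66 in Scram replicate 2. Its lung form Cox4i2 and the testis form Cox7b2 were each listed in 1 library with 1 read. Cox4i1 had no transcript listed in replicate 1 in either assay, so it has values in replicate 2 and Torin only. The markers of striated muscle were near 0 too, with 3 of 7 listed and a summed RNA level of 0 to 4.2 RPKM.

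Subunit c of the ATP synthase, which forms its rotating ring, is encoded by Atp5g1, Atp5g2 and Atp5g3, whose mature proteins are the same. Atp5g3 led in Ribo-seq at 3065.04 and 2883.93 in Scram. Atp5g1 stood at 1585.07 in Scram replicate 2, where its kept transcript was measured, and Atp5g2 at 597.99 in replicate 1 and 32.5 in replicate 2. The Scram replicates of Atp5g2 thus lay far apart. Every stretch of 30 nt in the coding sequences of Atp5g1 and Atp5g2 also occurs in a transcript of another gene, so their reads are uncertain, and the same holds for Atp5l and Cox7c. Cox7c, a membrane subunit of complex IV, stood at 133.84 in Scram replicate 1 and 1267.63 in replicate 2.

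With Torin, footprints on most members were lower than in Scram replicate 2 while their RNA was close to it. Differences are on the log2(scaled RPKM + 1) scale, which understates changes of low genes. In Ribo-seq 36 of 38 measured members were lower, with a median of -0.57, against 49.0% of all genes lower, 51.0% higher and a median of 0.01. In RNA-seq 24 of 37 were lower, with a median of -0.11, against 53.6% of all genes lower, 46.4% higher and a median of -0.03. Atp5g2 and Atp5s, listed at 0 in the Torin Ribo-seq library, count among these. Without them 34 of 36 members were lower in Ribo-seq, with a median of -0.52. The footprint median was also below 0 without scaling, at -0.37 where all genes stood at 0.19, and with quantile normalization, at -0.18 where all genes stood at 0.04, with 24 of 38 members lower. The libraries are each relative to their own total, so less RNA per cell and fewer cells cannot be told apart. Scaling to a common median also removes any shift shared by most genes. A value near or above 0 is thus relative to other genes, and footprints per cell were not measured.

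Translation efficiency (TE), the Ribo-seq difference minus the RNA-seq difference, had a median of -0.43 over 37 members and 0.04 over all genes, but the members' median turned to 0.12 with quantile normalization, where all genes stood at 0.03. Without scaling it was -0.07 for the members and 0.38 for all genes. With the reported scaling TE was lower for 31 of 37 members, or 30 of 36 without Atp5g2, against 46.9% of all genes lower and 53.1% higher. Among members with at least 20 reads in each library, TE was highest for Sdhd at 0.41, for the peripheral stalk subunit Atp5j at 0.38 and for Sdha at 0.22.

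**Figure D2:**
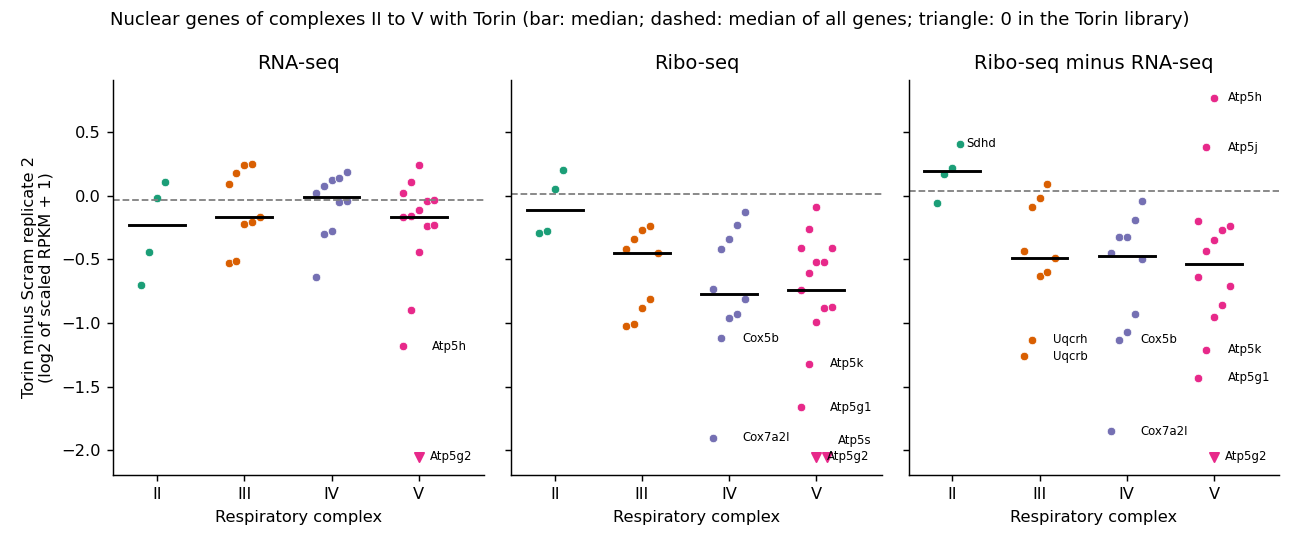
Difference between the Torin library and Scram replicate 2 for each member, by complex, in RNA-seq, Ribo-seq and Ribo-seq minus RNA-seq, on the log2(scaled RPKM + 1) scale. Bars are medians per complex, the dashed line is the median of all genes, and triangles are members at 0 in the Torin library. In Ribo-seq all points of complexes III, IV and V lie below 0 and those of complex II lie on both sides; the negative TE median of all members (-0.43) turned to 0.12 with quantile normalization.

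The Ribo-seq medians differed between complexes. Complex II had a median of -0.11, with 2 of 4 members lower, which turned to 0.09 without scaling and 0.29 with quantile normalization. Complex III had -0.45, with 9 of 9 lower, complex IV -0.77, with 10 of 10 lower, and complex V -0.74, with 15 of 15 lower, or -0.61 without Atp5g2 and Atp5s. With quantile normalization these 3 medians were -0.17, -0.21 and -0.29, with 6 of 9, 6 of 10 and 11 of 15 members lower. The RNA-seq medians were -0.23 in complex II, -0.17 in III, -0.01 in IV, where quantile normalization gave 0.01, and -0.17 in V. RNA was highest relative to Scram for Uqcrh at 0.25, Uqcrb at 0.24 and Atp5mpl, a small proteolipid of the ATP synthase, at 0.24, and lowest for Atp5j at -0.90, Sdhd at -0.70 and Cox7b, a small membrane subunit of complex IV, at -0.64, among members with at least 20 reads in each library. As 1 Torin library stands in each assay, no spread of its own is known, and whether the complexes differ was not tested.

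In complex II, Sdha had a Ribo-seq level of 141.14 with Torin against 122.68 in Scram replicate 2, from 546 and 905 reads. That difference of 0.20 had a counting interval of 0.05 to 0.36, and Sdha was the only member whose interval lay above 0. These intervals are exact 95% binomial intervals on reads of the 2 libraries and cover counting error only, since PCR copies were not told apart by molecular identifiers. Sdhb, the iron-sulfur subunit, stood at 168.25 with Torin against 203.86 in Scram replicate 2, a difference of -0.28 (-0.49 to -0.07). The membrane anchors differed from each other. Sdhc stood at 677.48 with Torin against 652.74 in Scram replicate 2, and its interval held 0. Sdhd stood at 565.11 against 689.59, with its RNA at 40.25 against 66.05.

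In complex III the catalytic subunits had smaller differences than most of the small ones. Cyc1, which carries the heme of cytochrome c1, stood at 425.52 in Ribo-seq with Torin against 511.82 in Scram replicate 2, a difference of -0.27. The Rieske iron-sulfur protein Uqcrfs1 stood at 289.41 against 367.45, and the core protein Uqcrc1 at 271.25 against 320.28. The small subunits Uqcr10, Uqcrb, Uqcrh and Uqcrq differed by -1.02, -1.01, -0.88 and -0.81. Uqcrb, for example, had 320.77 with Torin against 648.71 in Scram replicate 2, while its RNA was 67.36 against 56.70. The smallest difference among the small subunits was that of Uqcr11, -0.42, with 907.74 against 1214.56, and the core protein Uqcrc2 lay beside it at -0.45.

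In complex IV the largest Ribo-seq difference was that of Cox7a2l, with 34.38 in Torin against 130.87 in Scram replicate 2 in Ribo-seq, from 27 and 196 reads. Its RNA level hardly differed, 47.13 with Torin against 48.76. The Ribo-seq difference was -1.90 and its counting interval on the read ratio ran from -2.57 to -1.34. Scram replicate 1 held 62.95, between these values, so the Torin library lay below each of the 2 Scram libraries but by less against replicate 1. Next in order were Cox5b at -1.12, Cox7b at -0.96 and Cox4i1 at -0.93. Cox5b, which binds zinc on the matrix side, stood at 200.99 with Torin against 436.85 in Scram replicate 2, with RNA of 35.15 against 34.70. Cox4i1 stood at 921.16 against 1755.66, with RNA of 267.92 against 243.29. Cox5a, its partner on the matrix side, stood at 491.13 against 813.74. At the other end, Cox6b1, which faces the intermembrane space, stood at 1145.98 against 1254.75, and its interval held 0.

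In complex V the largest footprint differences, among members with reads in both libraries, were those of Atp5g1 and Atp5k, in the ring and the membrane part. Atp5g1 had 499.38 in Ribo-seq with Torin against 1585.07 in Scram replicate 2, from 398 and 2409 reads, a difference of -1.66. Atp5g3, the subunit c gene of the highest listed Ribo-seq level in Scram, had 2174.13 against 2883.93, a difference of -0.41. Atp5k, subunit e of the membrane part, had 389.16 against 972.79, a difference of -1.32. Among the peripheral stalk subunits, Atp5f1 differed by -0.88 and Atp5o by -0.74, whereas Atp5h differed by -0.41 with an interval that held 0. The alpha and beta subunits of the catalytic head had small differences. Atp5b, its beta subunit, had 1171.82 with Torin against 1399.08, and Atp5a1, the alpha subunit, had 1059.0 against 1124.51. Atp5c1, the central shaft, was measured in these libraries only when transcripts were summed, with 377.28 against 689.59. Atp5d, measured in the same way, had 526.37 against 912.86. Atp5e differed by -0.87, so small differences were not shared by all these subunits.

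By counting error alone, 32 of the 36 members that have reads in both libraries lay wholly below 0 in Ribo-seq, 1 above and 3 held 0. The same count was not made over all genes, so these numbers have no background share. At high read numbers even a small difference leaves 0 outside its interval, as for Atp5a1 at -0.09 (-0.15 to -0.03) from 3413 and 6911 reads. In RNA-seq 4 lay below 0, namely Atp5h, Atp5j, Cox8a and Sdhd, and 32 held 0. RNA reads in the Torin library were few, 6 for Atp5h and 677 for Atp5a1 at the ends of the range, so small RNA differences were not detectable at this depth. Such intervals compare 2 libraries and not 2 conditions.

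The test across all genes, limma with Benjamini-Hochberg adjustment, called 0 of 32 members in RNA-seq, 0 of 34 in Ribo-seq and 0 of 33 in TE for Torin at an adjusted p under 0.05, and it called 0.0% of all genes in each. At an unadjusted p under 0.05 it found 292 genes for RNA-seq with 1 member among them (Atp5g2), 556 for Ribo-seq with 4 members (Atp5f1, Atp5k, Atp5s and Cox5b) and 394 for TE with 2 members (Atp5s and Cox5b). Libraries of the same replicate number go together, and with the replicate as a block limma called 0.25% of all genes by RNA-seq, 1.41% by Ribo-seq and 0.599% by TE, of which 0.237%, 1.24% and 0.305% were lower with Torin. Of the members it then called 2 of 34 in Ribo-seq. Since Torin has 1 library per assay, each SE and p here rests on the spread of the other conditions and none of it on Torin replicates. Cox7a2l had a fitted difference of -2.03 ± 0.29 (SE, limma adjusted p = 0.0208 with the block and 0.725 without), and Atp5s, a coupling factor and not a structural subunit, was called with 0 listed reads in the Torin library against 10 in Scram replicate 2. In RNA-seq the block called 1 of 32 members, Atp5g2, which had 0 listed reads with Torin against 22 in Scram replicate 2. In TE it called 1 of 33, Atp5s again. As a library of this set lists a transcript from about 5 reads up, the size of the fitted change of Atp5g2 and Atp5s depends on the value added before taking logs and is not given. With the block and with transcripts summed per gene, limma also called Atp5g1 in Ribo-seq, with a fitted difference of -1.90 ± 0.34 (SE, adjusted p = 0.0464), although that gene shares its coding sequence with other genes. Atp5k came next with the block, at -1.29 ± 0.25 (SE, adjusted p = 0.0727).

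Other genes of the same organelle were set beside the members for scale. In Ribo-seq with Torin, 29 of 33 nuclear subunits of complex I were lower, with a median of -0.50, or -0.30 without scaling and -0.25 with quantile normalization. Of the enzymes of the tricarboxylic acid cycle 10 of 13 were lower, with a median of -0.18 that turned to 0.02 without scaling and 0.08 with quantile normalization. Of the assembly factors of complexes II to V 17 of 27 were lower, with a median of -0.11 that turned to 0.09 without scaling. The 10 mitochondrially encoded subunits measured had a median of 0.13. Cytoplasmic ribosomal proteins were all lower, 69 of 69, or 68 of 69 without scaling and with quantile normalization, with a median of -2.12, and the block called 38 of the 54 tested as lower, against 2 of 34 members and 1 of 24 subunits of complex I.

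The members code for short proteins, and footprint differences with Torin moved with coding length. The median coding length was 405 nt for the listed members against 1386 nt for all genes, and by complex it was 679.5 nt in II, 336 nt in III, 261 nt in IV and 441 nt in V. Under 300 nt the Ribo-seq median was -0.81 for 13 members and -0.45 for 144 other genes, ribosomal protein genes left out. From 300 to 600 nt it was -0.83 for 14 members and -0.38 for 948 other genes, and from 600 to 1200 nt -0.54 for 6 members, or -0.34 for 5 without Atp5s, which is at 0 with Torin, and -0.16 for 2707 genes. From 1200 nt up it was -0.24 for 5 members and 0.15 for 5560 genes. With this scaling members thus stood below other genes of like length in each of these 4 classes, and other short genes were lower than long ones too. Across 36 members, length and the Ribo-seq difference had a Pearson r of 0.42 and a Spearman rho of 0.45, given as a description of points that share the same 2 libraries. The part that length plays in the difference was not tested.

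**Figure D3:**
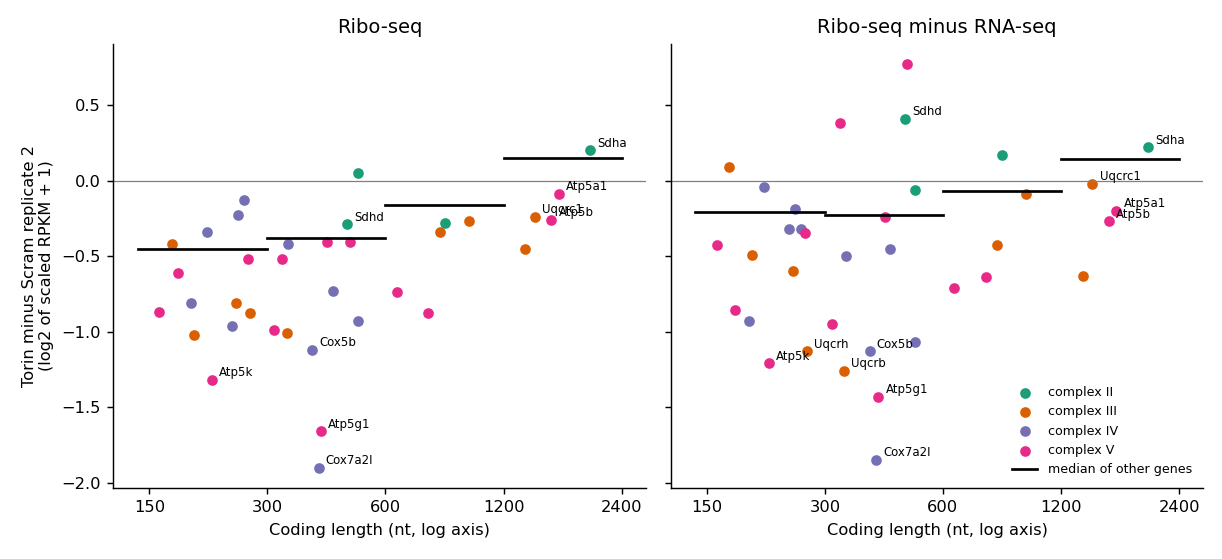
Difference between the Torin library and Scram replicate 2 against coding length (log axis) for the members, in Ribo-seq and in Ribo-seq minus RNA-seq, on the log2(scaled RPKM + 1) scale. Black bars are the medians of genes that are neither members nor ribosomal protein genes in 4 length classes. In Ribo-seq most points lie below the bar of their class; the negative TE median of the members (-0.43) turned to 0.12 with quantile normalization.

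The members were also set beside genes of like level. Among genes with a Scram replicate 1 Ribo-seq level of 100 to 1000, 20 members had a median of -0.74 against -0.30 for 1396 other genes. From 1000 up, 11 members had -0.41 and 99 other genes -0.40. Sequence shared with other genes also moved with the values. The 14 measured members with no shared stretch of 30 nt had a Ribo-seq median of -0.38, with 12 of 14 lower, those with under 50% shared -0.52, with 14 of 14 lower, and those with 50% or more -1.0, with 10 of 10 lower. Without Atp5s and Atp5g2, at 0 with Torin, the first class stood at -0.34 over 13 members and the last at -0.99 over 9. The last class holds Atp5g1, Cox7a2l, Cox5b, Uqcrb and Atp5f1, and also Uqcr11 at -0.42 and Atp5h at -0.41. Several of the largest differences named above thus fall on genes whose reads can be placed elsewhere. Others do not fall in that class, such as Atp5k at -1.32, Uqcr10 at -1.02, Cox7b at -0.96 and Cox4i1 at -0.93. The sources used here do not state how the authors treated such reads, and the part of shared sequence in these values was not tested.

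mRNAs of the TOP class, which includes those of ribosomal proteins, start with a C followed by pyrimidines at the cap. The annotated 5′ ends of the members' transcripts were read from GENCODE M21 for that feature, and the 20 first bases are given for the 6 members that start with C within a run of at least 5 pyrimidines and for 4 members with low TE values that do not. Capitals mark the pyrimidine run that starts with C at the first base. Coordinates are GRCm38.
Cox7a2l, chr17:83514311-83514330, minus strand: CCTTTTCTagggcggtcgca
Atp5mpl, chr12:111966958-111966977, minus strand: CTTTCCCattctgtagcaga
Uqcrfs1, chr13:30545343-30545362, minus strand: CCTTTCCggcgtcgcgctga
Cox6b1, chr7:30626132-30626151, minus strand: CTCTCgcagcttccggccag
Sdha, chr13:74350261-74350280, minus strand: CTTCCaagcccgacacccgc
Atp5d, chr10:80142315-80142334, plus strand: CCTTCggagaatcctgtgcg
Atp5g1, chr11:96075562-96075581, minus strand: gggctgcaggggagtgggag
Atp5k, chr5:108434429-108434448, minus strand: Cgcatgcgcctttctggctt
Uqcrb, chr13:66905359-66905378, minus strand: CCTgcgtaggagcccggcgt
Cox5b, chr1:36691484-36691503, plus strand: ggaagcggaagactgaccgg

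The run was present in 6 of 45 listed members (13.33%), in 9 of 78 ribosomal protein genes (11.54%) and in 323 of 14241 genes (2.27%), searched on the transcript strand from the first base only. TE differences with Torin of members with the run lay far apart. Cox7a2l had -1.85, Atp5mpl -0.86, Uqcrfs1 -0.43, Cox6b1 -0.32 and Sdha 0.22. Members without it also lay far apart, with -1.43 for Atp5g1, -1.26 for Uqcrb, -1.21 for Atp5k and -1.13 for Cox5b, but 0.38 for Atp5j and 0.41 for Sdhd. Atp5h, from 6 RNA reads in the Torin library, stood at 0.77. An annotated end is not a mapped cap, and a transcript without the run here may still start with it in these cells.

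METTL3 knockdown left the members near Scram. Of 32 members in RNA-seq, 8 were higher and 8 lower than Scram in both replicates, with a median log2 difference of -0.01, against 26.6% and 27.3% of all genes. Of 33 in Ribo-seq, 13 were higher and 6 lower in both, with a median of 0.14, against 32.6% and 25.7% of all genes and a median of 0.04. In TE 9 of 32 were higher and 7 lower in both, with a median of 0.16, against 31.9% and 23.3% of all genes and 0.06, and the median was -0.02 in replicate 2 alone. limma called 0 members and 0.0% of all genes in each. At an unadjusted p under 0.05 it found 0 members, among 111 genes for RNA-seq, 436 for Ribo-seq and 86 for TE. With the block it called 0.0119% of all genes in Ribo-seq, none of them members, and 0.0% in RNA-seq and TE.

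Among single members after METTL3 knockdown, the small subunit Uqcr11 had a Ribo-seq level of 1540.60 and 2300.56 with knockdown against 1350.15 and 1214.56 in Scram. Its differences were 0.19 and 0.92. Cox7b stood at 619.05 and 556.50 against 735.24 and 931.48 in Scram, with differences of -0.25 and -0.74. Uqcr10 and Uqcrb of complex III differed by 0.49 and 0.45 on average in Ribo-seq, and Uqcrh, the hinge protein that links cytochromes c1 and c, by -0.44. Cox7a2l differed by -0.62 and -0.07. In RNA-seq Cox5b differed by 0.59 on average, from 1.16 and 0.02, so replicate 1 alone carried it. Atp5mpl likewise differed by 0.05 and 0.82, and Uqcr10 by 0.28 on average. The lowest RNA values relative to Scram were those of Uqcrh at -0.54, Uqcrc1 at -0.46 and Cox6b1 at -0.41. Atp5g2 in METTL3 replicate 2 was listed at 0 in Ribo-seq, against 53 reads in Scram replicate 2.

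Cox6b1 had the highest TE difference after METTL3 knockdown. Its Ribo-seq level was 1565.24 and 1573.56 with knockdown against 1222.16 and 1254.75 in Scram, while its RNA was 88.97 and 85.76 against 133.51 and 101.37. The TE difference was 0.94 and 0.57, for which limma with the block gave an adjusted p of 0.999. All 4 members of complex II had a higher TE in both replicates, also without scaling and with quantile normalization, with a median of 0.33, led by Sdhc at 0.39 and 0.39 and Sdhd at 0.30 and 0.39. Lower TE values in both replicates were found for Atp5mpl at -0.59 on average, for Cox5b at -0.57 and for Atp5f1 at -0.45.

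ABCF1 knockdown showed lower RNA for many members with footprints near Scram. In RNA-seq 17 of 32 members were lower and 2 higher in both replicates, with a median of -0.18, against 29.4% and 23.4% of all genes and a median of -0.05. Cytoplasmic ribosomal proteins did likewise, with 38 of 55 lower in both and a median of -0.30, or 21 of 55 and -0.15 with quantile normalization. Nuclear subunits of complex I did not, with 6 of 25 lower and 6 higher in both and a median of 0.04. Of the assembly factors 6 of 26 were lower and 8 higher, with a median of -0.05. Of the enzymes of the tricarboxylic acid cycle 5 of 12 were lower and 1 higher, with a median of -0.16. The members' median was -0.11 and -0.10 in the 2 replicates, -0.32 without scaling, where all genes stood at -0.17, and -0.05 with quantile normalization, where all genes stood at -0.01 and 12 members were lower and 3 higher in both. In Ribo-seq 9 of 34 were higher and 7 lower in both, with a median of 0.02, against 29.3% and 23.6% of all genes. In TE, which shares the RNA libraries and is no separate evidence, 18 of 32 were higher and 4 lower, with a median of 0.20, against 31.4% and 22.1% of all genes. limma called 0 members and 0.0% of all genes in each, with and without the block. At an unadjusted p under 0.05 it found 0 members without the block, among 151 genes for RNA-seq, 202 for Ribo-seq and 76 for TE.

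Atp5h, subunit d of the peripheral stalk, had the largest negative RNA difference with ABCF1 knockdown, with levels of 36.67 and 9.72 against 67.09 and 23.63 in Scram, from 52 and 6 reads against 114 and 51. Its Ribo-seq level was 231.31 and 61.07 against 367.62 and 89.03. Within each replicate the knockdown lay below Scram in both assays, by -0.85 and -1.20 in RNA-seq and -0.67 and -0.54 in Ribo-seq, but the replicates lay farther apart than the conditions (RNA-seq -1.03 ± 0.20 with the block, SE, limma adjusted p = 0.702). Reads of this gene are uncertain, as 80.1% of its coding stretches occur in other genes. Its 6 reads are under the 20 in each library asked of members named for their difference, as are the 5 of Atp5g2 in ABCF1 replicate 2, which differed by -1.01 and -0.30. Among members with at least 20 reads that differed the same way in both replicates, Cox7c had the largest negative RNA difference, with 35.63 and 120.69 against 69.12 and 136.34 in Scram. Cox6b1 RNA was 96.19 and 80.93 against 133.51 and 101.37, with footprints of 1438.39 and 1389.38 against 1222.16 and 1254.75, the same directions as after METTL3 knockdown, which was compared with the same Scram libraries. Among members with at least 20 reads in each library that differed the same way in both replicates, Cox5a had the highest footprint difference, with levels of 915.12 and 998.30 against 735.80 and 813.74 in Scram and differences of 0.31 and 0.29. Cox6a1 differed by 0.92 and -0.20. Cox7a1 had 26 and 9 reads with knockdown against 16 in Scram replicate 1 and none listed in replicate 2. Among the 10 complex IV members in Ribo-seq, 6 were higher in both replicates and 0 lower, against 29.3% and 23.6% of all genes. In complex V 0 were higher and 4 lower of 11, or 2 higher and 3 lower with quantile normalization. Several of these differences lay near 0, as for Cox7b at 0.12 and 0.01, Cox8a at 0.02 and 0.12 and Atp5o at -0.05 and -0.01. The 6 also include Cox7a1 with its few reads, and whether the complexes differ was not tested. Uqcrc1 differed by 0.23 and 0.32 and Sdhb by 0.35 and 0.13 in Ribo-seq, against -0.75 and -0.06 for Sdhc and -0.30 and -0.13 for Atp5mpl. In RNA-seq Uqcrb differed by 0.20 and 0.17, and Uqcrh by -0.37 on average. Under the same rule on reads and direction, the highest TE differences were those of Uqcrh at 0.70, Cox6b1 at 0.59 and Cox7c at 0.57, and the lowest were -0.45 for Uqcrb, -0.05 for Atp5g3 and -0.04 for Sdhc. Outside that rule Atp5g2 stood at 0.63, Atp5mpl, with 19 RNA reads in ABCF1 replicate 2, at -0.46, and Cox5b at -0.46 from -1.08 and 0.17. Atp5j, a peripheral stalk subunit, had an RNA level of 794.68 in ABCF1 replicate 2 against 174.98 in Scram replicate 2, while its Ribo-seq level was 634.19 against 658.29. Its kept transcript was not measured in replicate 1, and with transcripts summed RNA there was 104.92 with knockdown against 106.77 in Scram, so 1 library carries that value.

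**Figure D4:**
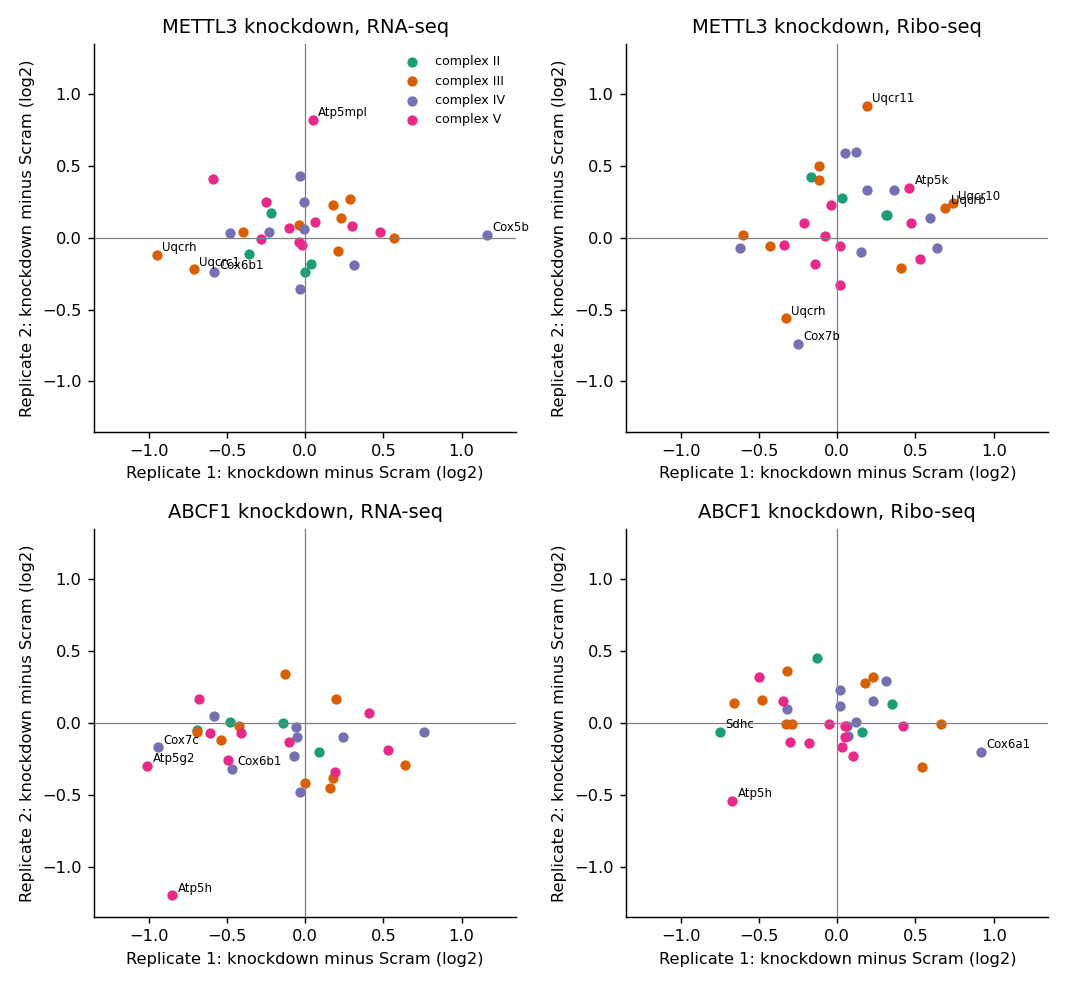
Difference between knockdown and Scram of the same replicate for each member, replicate 2 against replicate 1, for METTL3 and ABCF1 knockdown in RNA-seq and Ribo-seq, on the log2(scaled RPKM + 1) scale. Points below 0 on both axes or above 0 on both differ from Scram the same way in both replicates, and members at 0 in a library compared are left out. In ABCF1 RNA-seq 17 of 32 members were lower in both replicates, or 12 with quantile normalization.

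Of the central subunits not yet named for the knockdowns, Atp5b, Cyc1 and Sdha changed direction between replicates in Ribo-seq. They were lower than Scram in replicate 1 and higher in replicate 2 with each knockdown. For Cyc1 these differences were -0.12 and 0.50 with METTL3 knockdown and -0.48 and 0.16 with ABCF1 knockdown. Uqcrfs1 differed by -0.12 and 0.40 with METTL3 knockdown and by -0.29 and -0.01 with ABCF1 knockdown. Atp5b in Ribo-seq stood at 1285.64 and 1497.69 with METTL3 knockdown and 1162.20 and 1552.92 with ABCF1 knockdown, against 1485.91 and 1399.08 in Scram, and the groups overlapped. Cyc1 stood at 692.94 and 722.09 and at 538.38 and 571.93 in the same order, against 752.83 and 511.82. Sdha stood at 102.77 and 164.55 and at 105.11 and 168.23, against 115.42 and 122.68, so both knockdowns were lower in replicate 1 and higher in replicate 2. Uqcrfs1 stood at 536.84 and 485.67 and at 475.10 and 363.91, against 582.19 and 367.45.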

How the data were processed

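The deposited values are RPKM per Ensembl transcript. Per the submitters' processing notes, the authors trimmed reads (cutadapt) and aligned them with Bowtie against GRCm38. The sources used here name no tool versions, no annotation release and no handling of reads with several positions. Of 22453 transcripts 22356 matched GENCODE M21, and per gene the transcript with the highest mean RPKM was kept. RPKM times length gave whole reads within 0.02 for 98.7% to 98.8% of Ribo-seq and 80.4% to 85.4% of RNA-seq values, which yields the depths and reads given. A kept transcript that held under 50% of its gene's RPKM in a replicate set was taken as not measured there, and another unlisted one as 0. This leaves Atp5a1, Atp5g1, Atp5j, Atp5j2 and Cox4i1 to replicate 2 and Torin, and Atp5c1, Atp5d and Cox6c to replicate 1.

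Libraries were scaled to a common median, and log2(RPKM + 1) was fitted with limma 3.58.1 (R 4.3.3, eBayes with trend, TE as an interaction) over genes listed in at least 50% of libraries with a mean of at least 1 RPKM. The spread of the single Torin library was taken from the other conditions. The fit has no block. Deviations of same-numbered libraries from their group means correlated with each other (Ribo-seq 0.59 to 0.72, RNA-seq 0.49 to 0.62), so same-numbered libraries went together. The replicate sets also list transcripts differently, and whether the libraries were paired by culture was not tested. The fits were run on simulated data with known changes, as a check of the code only. Members, lists and alternatives were chosen with earlier results of these data known. Named by rule were the central subunits, isoform families, called members and, per comparison, the 3 members highest and lowest among those with at least 20 reads in each library that differed the same way in both replicates.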

Additional observations from a re-analysis of the deposited data

How the results depend on the processing

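The number of members called depended on the replicate block, on transcripts and on low values. For Torin the block gave 1 member in RNA-seq, 2 in Ribo-seq and 1 in TE, and the block with transcripts summed per gene gave 1, 3 and 1. A pseudocount of 0.1 gave 1 in Ribo-seq (Atp5s). Without the filter on low values, limma called 2 members in METTL3 TE (Cox4i2 and Cox7b2) and 2 in ABCF1 TE (Cox6a2 and Cox7b2), each listed in 1 library by 1 or 2 reads, so these rest on constant zeros. The block changed no other call of a member. The other 103 recomputed counts of called members were 0 as in the report.

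Medians of members moved with scaling. Without scaling they were -0.07 in METTL3 RNA-seq, 0.08 in METTL3 Ribo-seq, -0.32 in ABCF1 RNA-seq, 0.38 in ABCF1 TE, and -0.27, -0.37 and -0.07 in Torin RNA-seq, Ribo-seq and TE. With quantile normalization they were 0.08 in METTL3 Ribo-seq, -0.05, 0.06 and 0.15 in ABCF1 RNA-seq, Ribo-seq and TE, and -0.18 and 0.12 in Torin Ribo-seq and TE. With transcripts summed per gene they were -0.21 in ABCF1 RNA-seq and -0.61 in Torin Ribo-seq, and against the mean of both Scram libraries -0.65 in Torin Ribo-seq and -0.57 in TE. Leaving out each replicate gave -0.02 to 0.04 in METTL3 RNA-seq, 0.04 to 0.10 in METTL3 Ribo-seq, -0.02 to 0.16 in METTL3 TE, -0.11 to -0.10 in ABCF1 RNA-seq and 0.12 to 0.15 in ABCF1 TE. In these the cause was not tested.

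Limits: 1 Torin library per assay gives no spread of its own, replicate sets list transcripts differently, and RNA reads of many members in replicate 2 and Torin are under 100. For the counts of called members, summing transcripts, with and without the block, and setting unlisted transcripts to 0 were chosen after seeing the data.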
